A study of Mus musculus with 6 samples.

Results

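Stressed proximal tubule cells of the mouse kidney were described here as the proximal tubule cells that held at least 4 unique molecular identifiers (UMIs, each marking 1 captured RNA molecule) of Krt8, F3 and Gdf15 together. A cell also had to hold at least 4 UMIs of Slc22a8, Slc22a6, Acy3, Slc5a2, Spp2, Slc22a7 and Slc7a13 together, no UMI of Ptprc or Pecam1, at most 2 UMIs of Slc12a1, Slc12a3 and Aqp2 together, 200 to 3000 genes and at most 50% mitochondrial UMIs. The rule found 461 cells among 12305 proximal tubule cells, 24212 kidney cells within these limits, 34034 deposited kidney cells and 58561 cells of the whole series. They came from 3 droplet libraries with 1 library per condition, 137 of 2744 proximal tubule cells in the control, 186 of 7007 in the 15 min platform library and 138 of 2554 in the 60 min platform library. The remaining 11844 proximal tubule cells, with 0 to 3 UMIs of the 3 genes, served as the reference and are called the other proximal tubule cells.

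All 3 libraries came from kidney tissue of male C57BL/6 mice, an inbred laboratory strain, at an age of 12 weeks, that was minced and digested with collagenase and then sorted for live cells. The control was digested for 60 min and broken up by vortexing and pipetting, without the microfluidic devices. The platform libraries held the cells drawn off a microfluidic digestion device after 15 min and after 60 min, each then passed through a dissociation and filter device. As the study describes interval collection, digestion goes on in the same tissue after the first draw, so the 60 min library holds cells still in the tissue at 15 min, and processing time and order of release cannot be told apart. By the study's methods, the control and device conditions of a replicate were run on tissue of the same animal, and the kidney data are a single replicate, so the libraries share their source. No group carries a transgene, and no difference between conditions has a replicate check.

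The proximal tubule is the first segment of the nephron after the filter and takes back most of the filtered glucose, amino acids, phosphate and protein through transporters and endocytic receptors of its brush border. Its cells burn fatty acids, make glucose and are among the kidney cells most easily injured. Immediate early genes are switched on within minutes of a stimulus without new protein synthesis. Many of them encode subunits of AP-1, a transcription factor made of Fos and Jun proteins that binds TGANTCA. Enzymatic digestion of tissue is a known trigger of the same genes.

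The genes behind the rule have different known roles. Krt8 (ENSMUSG00000049382, mm10 chromosome 15, 101996698 to 102004482, minus strand) encodes a keratin of simple epithelia that forms filaments with Krt18. F3 (ENSMUSG00000028128, chromosome 3, 121723537 to 121735048, plus strand) encodes tissue factor, the membrane protein that starts blood clotting. Gdf15 (ENSMUSG00000038508, chromosome 8, 70629393 to 70632456, minus strand) encodes a secreted stress cytokine. Cyr61 (ENSMUSG00000028195, chromosome 3, 145646976 to 145649981, minus strand), a matrix-associated signalling protein and a target of the YAP coactivators, was named as a marker of these cells but was not used in the rule.

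Promoter sequence is shown because AP-1 genes were among those that differed most between the cells. In windows of 300 bases, 250 of them before the start, RefSeq promoters on GRCm38.p6 were searched on both strands for TGANTCA (the AP-1 site), for TGACGTCA (the cyclic AMP response element, bound by Creb and Atf proteins; it does not overlap TGANTCA) and for the CArG box of serum response factor. Among the rule genes, a match was found in the F3 window, which held TGANTCA 146 and 135 bases before the start, and no match was found for Krt8 or Gdf15. Cxcl10 and Dusp1, described below, held TGANTCA 74 bases and TGACGTCA 143 bases before the start. The 150 bases before each start are given with the matches in capitals, F3 from chr3:121723387-121723536 on the plus strand, Cxcl10 from chr5:92348890-92349039 and Dusp1 from chr17:26508473-26508622 on the minus strand.
F3: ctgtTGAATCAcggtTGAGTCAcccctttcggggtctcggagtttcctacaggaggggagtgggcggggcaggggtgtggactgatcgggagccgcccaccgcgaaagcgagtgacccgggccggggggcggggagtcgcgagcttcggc
Cxcl10: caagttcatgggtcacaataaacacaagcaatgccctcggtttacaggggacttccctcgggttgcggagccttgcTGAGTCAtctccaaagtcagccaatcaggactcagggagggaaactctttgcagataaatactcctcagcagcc
Dusp1: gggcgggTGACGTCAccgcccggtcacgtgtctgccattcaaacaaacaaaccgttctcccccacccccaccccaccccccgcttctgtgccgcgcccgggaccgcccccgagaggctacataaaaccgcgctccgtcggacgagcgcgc

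TGANTCA was present in 7.81% of 32851 promoter windows and in 4.75% of those of the genes compared below, and TGACGTCA in 1.79% and 3.67%. No match of any of the 3 motifs lay in the windows of Cyr61, Fos, Fosb, Jun, Junb or Atf3. Of the 16 genes called higher below, 15 were matched to RefSeq, and Cxcl10 and Snx29 held TGANTCA, Dusp1 held TGACGTCA and none held a CArG box. A match describes the letters of the window only.

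The 461 cells held 4554246 UMIs, with medians of 7959, 11855.5 and 9149 UMIs per cell in the control, the 15 min and the 60 min library, against 6016, 7197 and 6462 in the other proximal tubule cells. Their median mitochondrial share was 11.3, 18.8 and 13.7%, against 11.4, 22.0 and 16.2%. Within the 461 cells, no barcode occurred in 2 or more libraries, while 309 barcodes did among all 34034 deposited kidney cells. Whether barcodes of the 461 cells occurred among the remaining cells of another library was not checked. Levels are given as UMIs of a gene per 1000000 UMIs (CPM) of all cells of a group in a library. Intervals are exact 95% intervals, binomial (Clopper-Pearson) for shares and Poisson for levels, and cover counting error only.

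Cells that met the rule made up 4.99% of the proximal tubule cells of the control (interval 4.21 to 5.88). They made up 2.65% (2.29 to 3.06) of those of the 15 min library and 5.40% (4.56 to 6.35) of those of the 60 min library. The control and 60 min shares overlapped and the 15 min share lay below both. As a share of all kidney cells within the limits, the values were 2.33, 2.22 and 1.39%. At 15 min, 124 of the 186 cells held exactly 4 UMIs of the rule genes and 6 held 8 or more, whereas 38 of 137 control cells and 49 of 138 cells at 60 min held 8 or more. The cells at 15 min were also the deepest. After every cell had been thinned to 3000 UMIs, 41 of 2093 control cells met the rule (1.96%, 1.41 to 2.65), as did 5 of 6472 cells of the 15 min library (0.0773%, 0.0251 to 0.180) and 38 of 1964 cells of the 60 min library (1.94%, 1.37 to 2.65). This step left out 444, 307 and 366 shallower proximal tubule cells. The share at 15 min thus lay further below the other libraries at equal depth, while at least 1 UMI of the 3 genes was still found in 30.7, 25.4 and 31.1% of the thinned cells. Without the upper limit on genes, 618, 787 and 909 cells met the rule, at shares of 15.6, 8.24 and 21.4%, so the limit left out most such cells. The 15 min share was again the lowest, but the control (14.5 to 16.8) and 60 min (20.1 to 22.6) intervals no longer overlapped.

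**Figure D1:**
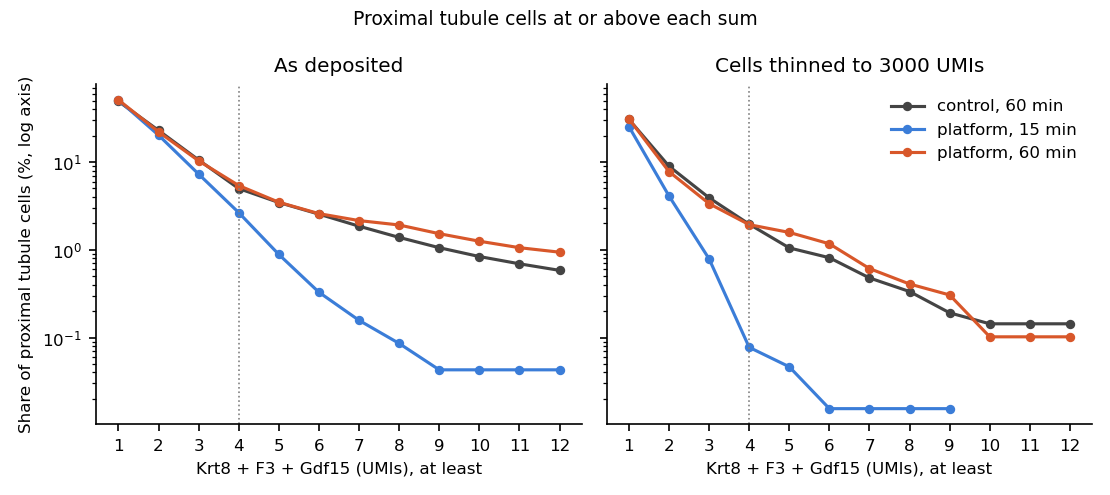
Share of proximal tubule cells (percent, log axis) with at least the number of Krt8, F3 and Gdf15 UMIs on the horizontal axis, as deposited (left) and with each cell thinned to 3000 UMIs (right), in the 3 libraries. The dotted line marks the 4 UMIs of the rule. At 4 UMIs the thinned shares are 1.96, 0.0773 and 1.94% in the control, 15 min and 60 min libraries, and the 15 min curve falls away from the others.

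On the edge of the rule, the 153, 325 and 126 cells with 3 UMIs (control, 15 min, 60 min) and the 42, 124 and 49 cells with exactly 4 were read for genes that the rule did not use. Cyr61 was at 123, 16.5 and 127 CPM in the cells just outside and at 157, 23.4 and 172 CPM in those just inside. Jun was at 270.3, 49.8 and 843 CPM outside and at 382, 107 and 906 CPM inside. Both genes were higher just inside than just outside in each library, and no intervals are given for these small groups. Malat1, described below, was at 2397, 2461 and 21562 CPM outside and at 2195, 4794 and 19850 CPM inside. It was thus higher inside at 15 min and lower inside in both 60 min libraries.

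Krt8 gave most of the UMIs that met the rule, 61.1, 73.5 and 52.1% for the control, 15 min and 60 min libraries. Gdf15 gave 19.98, 16.7 and 37.8%, and F3 gave 18.9, 9.84 and 10.1%. Krt8 was the leading gene, alone highest, in 91, 151 and 88 cells, Gdf15 in 23, 16 and 35, and F3 in 13, 5 and 8. All 3 genes were present together in 27, 14 and 24 cells, and 186 of the 461 cells held only 1 of them.

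Whether the 3 genes went together was described by choosing cells on a pair of them and reading the remaining gene, whose own UMIs then played no part in the choice. Gdf15 was at 121 CPM (99.4 to 147) in the 107 control cells chosen on Krt8 and F3, against 14.3 CPM (12.6 to 16.2) in the rest. At 60 min the values were 131 CPM (108 to 157) and 29.8 CPM (27.2 to 32.5). At 15 min they were 7.84 CPM (4.17 to 13.4) and 10.6 CPM (9.73 to 11.5), so that the intervals overlapped. F3 followed the same course, with 125 against 16.1 CPM in the control, 65.3 against 14.4 CPM at 60 min, and 13.7 (8.58 to 20.7) against 11.02 CPM (10.2 to 11.9) at 15 min. Krt8 was at 431 against 109 CPM, 312 against 100.0 CPM and, at 15 min, 137 (92.0 to 197) against 83.0 CPM (80.7 to 85.5). In both 60 min libraries each rule gene was thus higher in cells chosen on the other two, although most cells did not hold all 3. At 15 min the intervals were apart for Krt8 alone, at 1.66 times. The label of stressed cells was thus not borne out for most of the 15 min cells, and the 461 cells are called Krt8/F3/Gdf15-high cells from here on.

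Krt8 itself was at 550 CPM in the Krt8/F3/Gdf15-high cells of the control, 296 CPM at 15 min and 445 CPM at 60 min. In the other proximal tubule cells it was at 86.0, 74.6 and 78.8 CPM, and in distal tubule and collecting duct cells at 108, 51.6 and 110 CPM. In lymphocytes, which should lack it, Krt8 was at 3.64, 1.39 and 7.16 CPM. At 3000 UMIs per cell, 22.7, 19.9 and 21.8% of the other proximal tubule cells held a Krt8 UMI, against 1.23, 0.344 and 1.79% of the lymphocytes, at unthinned medians of 4072, 3840.5 and 4188.5 UMIs. Krt8 was therefore present across the proximal tubule at a level near that of the distal cells, and its partner was not. Krt18 gave 6, 1 and 6 UMIs in the Krt8/F3/Gdf15-high cells, which is 0.966, 0.156 and 1.05% of the UMIs of Krt8 and Krt18 together. In the distal cells Krt18 gave 48.4% (41.0 to 55.8), 11.5% (2.45 to 30.2) and 41.9% (37.1 to 46.8). UMIs are counted at the 3' end, so this share is read between cell groups and not as a ratio of protein partners. Of the other keratins, Krt19, Krt23 and Krt80 had no UMI in the Krt8/F3/Gdf15-high cells, Krt7 had 0, 1 and 1, and Krt20 was at 8.05, 0 and 2.37 CPM. Epcam, an adhesion protein of distal epithelium, gave 1, 1 and 0 UMIs. Krt10 was the only list member of 7 that passed the level filter and differed by less than 2-fold in each library.

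F3 was at 170 CPM in the control, 39.6 CPM at 15 min and 86.2 CPM at 60 min in the Krt8/F3/Gdf15-high cells, against 12.2, 9.93 and 12.4 CPM in the other proximal tubule cells. Distal cells lay at 12.6, 8.97 and 7.24 CPM and endothelial cells at no more than 1.29 CPM. Gdf15 was at 180, 67.2 and 323 CPM, against 9.10, 8.19 and 12.7 CPM in the other proximal tubule cells and 58.2, 0 and 30.3 CPM in the distal cells. Of the 3 rule genes, Gdf15 was the one that was higher at 60 min than in the control, at a log2 ratio of 0.84. The rule acted on the UMIs of F3 and Gdf15, so these gaps and their order between libraries are a description only.

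The Krt8/F3/Gdf15-high cells were set against the other proximal tubule cells of the same library for every other gene. Since the cells were chosen on their own RNA, these ratios are a description and no test was made. A gene was called where its log2 ratio, with 1 CPM added to both levels, was at least 2-fold in the same direction in all 3 libraries, among 4373 genes with a mean of at least 20 CPM over both cell groups and the 3 libraries. The called genes were 16 higher (0.366% of the genes) and 0 lower (0%). Within the libraries alone, the genes at least 2-fold higher numbered 220 for the control (5.03%), 18 for the 15 min library (0.412%) and 269 for the 60 min library (6.15%). The median log2 ratio over all compared genes was 0.036, 0.081 and -0.037. The 15 min library decided the count, which was 201 without it, 17 without the control and 13 without the 60 min library.

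By the ratio in its weakest library Fos led the list, at a log2 ratio of 2.27, followed by Cxcl10, Fosb, Plk3 and Jun, with Junb further down. Fos, the DNA-binding partner of Jun proteins, was at 685 CPM in the Krt8/F3/Gdf15-high cells of the control (637 to 735). The 15 min library had 37.3 CPM (29.6 to 46.4) and the 60 min library 731 CPM (684 to 780). The other proximal tubule cells had 64.3, 6.95 and 96.0 CPM. Jun was at 1265, 149 and 2626 CPM against 134, 53.4 and 409 CPM. Fosb was at 211, 23.5 and 337 CPM against 12.4, 7.14 and 50.8 CPM, and Junb at 393, 18.0 and 257 CPM against 34.2, 7.198 and 52.2 CPM. The intervals of the cell groups did not overlap for any of these values of Fos and Jun. In each library the Krt8/F3/Gdf15-high cells were the higher of these groups. Fos was at 468, 298 and 459 CPM in distal cells and at 2626.5, 1014 and 2956 CPM in endothelial cells. The endothelial level was above that of the Krt8/F3/Gdf15-high cells in every library, and the distal level at 15 min. The 81 Fos UMIs at 15 min came from 10 of the 186 cells, and in the 167 cells at or below a Malat1 limit described below the log2 ratios there were -1.08 for Fos and -0.20 for Jun. Atf3, a stress-induced member of the same family, was at 159 CPM in the control and 160 CPM at 60 min, against 16.5 and 36.0 CPM. At 15 min it had no UMI in the 186 cells, which allows up to 1.38 CPM if 3 UMIs are taken as the limit of a count of 0, against 0.281 CPM in the other cells. In all, 4 of the 6 compared members of the AP-1 list of 9 were called, with median log2 ratios of 3.31, 1.34 and 2.48.

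Immediate early genes outside AP-1 followed, with 4 of 10 compared genes called out of a list of 20 and medians of 2.98, 0.80 and 2.13. Egr1, a zinc finger factor, was at 167, 3.68 and 222 CPM against 15.4, 0.806 and 42.0 CPM, with 8 UMIs behind the 15 min value. Klf6 and Klf4, Krüppel-like factors, were at 229, 24.4 and 435 CPM and at 38.5, 4.604 and 77.5 CPM, against 24.6, 10.8 and 77.5 CPM and 5.65, 1.07 and 12.7 CPM. The Klf4 value at 15 min rests on 10 UMIs in 3 cells. Dusp1, a phosphatase that turns off MAP kinases, was at 174, 56.6 and 407 CPM against 35.2, 22.2 and 90.6 CPM. Cyr61, the marker that the rule had not used, was at 307 CPM (275 to 341) in the control, with 36.4 CPM (28.8 to 45.3) in the 15 min and 515 CPM (476 to 556) in the 60 min library. The other proximal tubule cells had 30.7, 12.99 and 64.7 CPM, and lymphocytes had 3.19, 1.39 and 8.38 CPM. Distal cells had 67.3, 40.4 and 62.0 CPM and endothelial cells 167, 74.7 and 171 CPM. At 15 min the Krt8/F3/Gdf15-high cells lay below the endothelial cells and overlapped the distal cells (23.9 to 63.8). A Cyr61 UMI was found in 52.6, 13.4 and 62.3% of the Krt8/F3/Gdf15-high cells and, at 3000 UMIs per cell, in 34.6, 8.06 and 51.5%, against 5.26, 3.04 and 9.32% of the other proximal tubule cells.

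**Figure D2:**
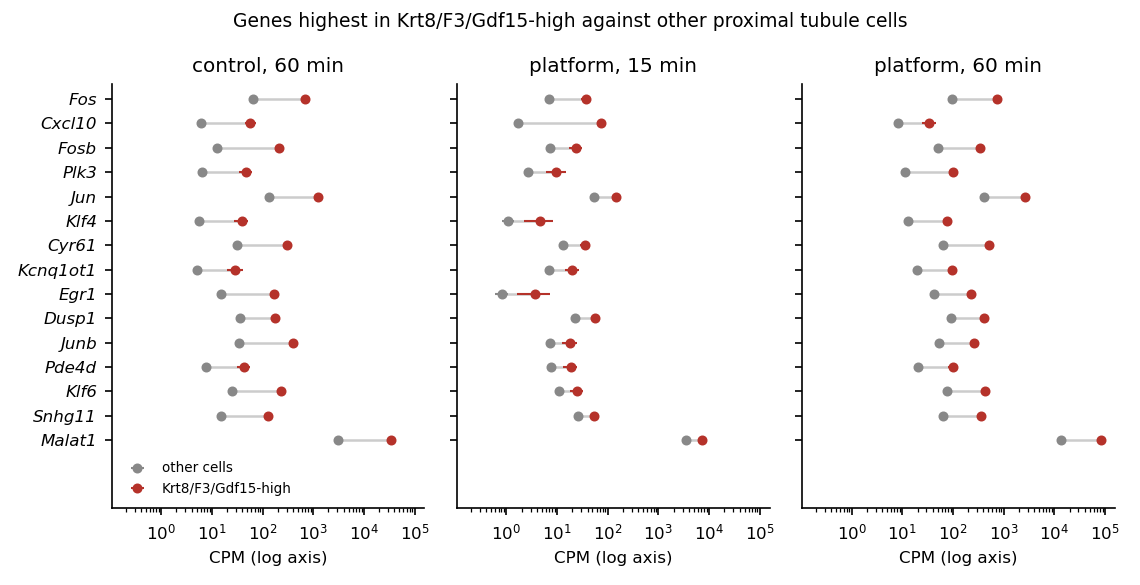
CPM (log axis, exact 95% Poisson intervals) of the 15 genes with the highest weakest-library ratio in Krt8/F3/Gdf15-high cells (red) and in other proximal tubule cells (grey), 1 panel per library. The gap for Jun runs from 134 to 1265 CPM in the control, from 53.4 to 149 CPM at 15 min and from 409 to 2626 CPM at 60 min.

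Of the called genes, 3 are long noncoding RNAs. They were put together after their values were seen, and no list of such RNAs was compared. Malat1, a nuclear RNA that is retained where splicing takes place, was at 34163 CPM in the Krt8/F3/Gdf15-high cells of the control, 7394 CPM at 15 min and 81782 CPM at 60 min, against 3017, 3554 and 13508 CPM in the other cells. Kcnq1ot1, an imprinted nuclear RNA, was at 28.6, 19.8 and 97.3 CPM against 5.19, 6.84 and 19.4 CPM, and Snhg11 was at 126, 53.9 and 358 CPM against 15.4, 25.3 and 64.2 CPM. The other called genes were Pde4d, a phosphodiesterase that breaks down cyclic AMP, Plk3, a stress-responsive kinase, Cxcl10, an interferon-induced chemokine, and Snx29, a sorting nexin. Cxcl10 was at 57.2, 74.6 and 34.0 CPM against 6.22, 1.72 and 8.21 CPM, but its 162 UMIs at 15 min came from 4 cells, and 77 of them from a single cell. Snx29, which completes the 16 and was named after its values were seen, was at 60.8, 36.4 and 135 CPM against 18.8, 17.6 and 38.3 CPM and just past the 2-fold line at 15 min, at a log2 ratio of 1.01.

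At the low end, no compared gene was 2-fold lower in all 3 libraries. Apob, a lipoprotein, came nearest, at 23.2, 52.0 and 72.8 CPM against 47.9, 75.2 and 104 CPM. Gsto1, Fabp3, Tmed6 and the other 11 genes at that end had log2 ratios between -0.80 and -0.23 in every library.

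Levels were also read by the sum of the rule genes. In the control, Cyr61 was at 18.8 CPM in proximal tubule cells with no UMI of the 3 genes, 40.4 CPM with 1 to 3, 167 CPM with 4 to 7 and 689 CPM with 8 or more. At 60 min the steps were 48.2, 77.7, 278 and 972 CPM. At 15 min they were 13.6, 12.5, 29.4 and 280 CPM, so that the level was flat up to 3 UMIs and was raised in the 6 cells with 8 or more. Jun had 113, 152, 858 and 2378 CPM in the control, 64.1, 45.3, 117 and 1250.3 CPM at 15 min and 368, 441, 1822 and 4179 CPM at 60 min. Jun was thus lower with 1 to 3 UMIs than with none at 15 min, as were Fosb (5.21 against 9.70 CPM) and Dusp1 (17.7 against 28.2 CPM), and Egr1 had no UMI in the 6 cells. Malat1 was lower with 1 to 3 UMIs than with none in every library, at 2720 against 3384 CPM in the control, 2408 against 5067 CPM at 15 min and 12374 against 14940 CPM at 60 min, and was higher than both from 4 UMIs on. Median depth rose between the first bins too, from 4849.5 to 7684 UMIs per cell in the control, and was 8000 and 7814.5 UMIs in the bins at 4 to 7 and at 8 or more. Lrp2, the megalin receptor that takes up filtered protein, was at 523, 479, 432 and 722 CPM in the control with 766, 693, 612 and 691 CPM at 15 min and 788, 681, 598 and 1004 CPM at 60 min. Slc34a1, the phosphate cotransporter of the brush border, was at 2731, 2738, 2518 and 3284 CPM in the control with 4629, 4466, 4111 and 2682 CPM at 15 min and 3396, 3290, 3195 and 5143 CPM at 60 min. In the cells with 8 or more, Slc34a1 was thus at its lowest at 15 min and at its highest in both 60 min libraries.

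**Figure D3:**
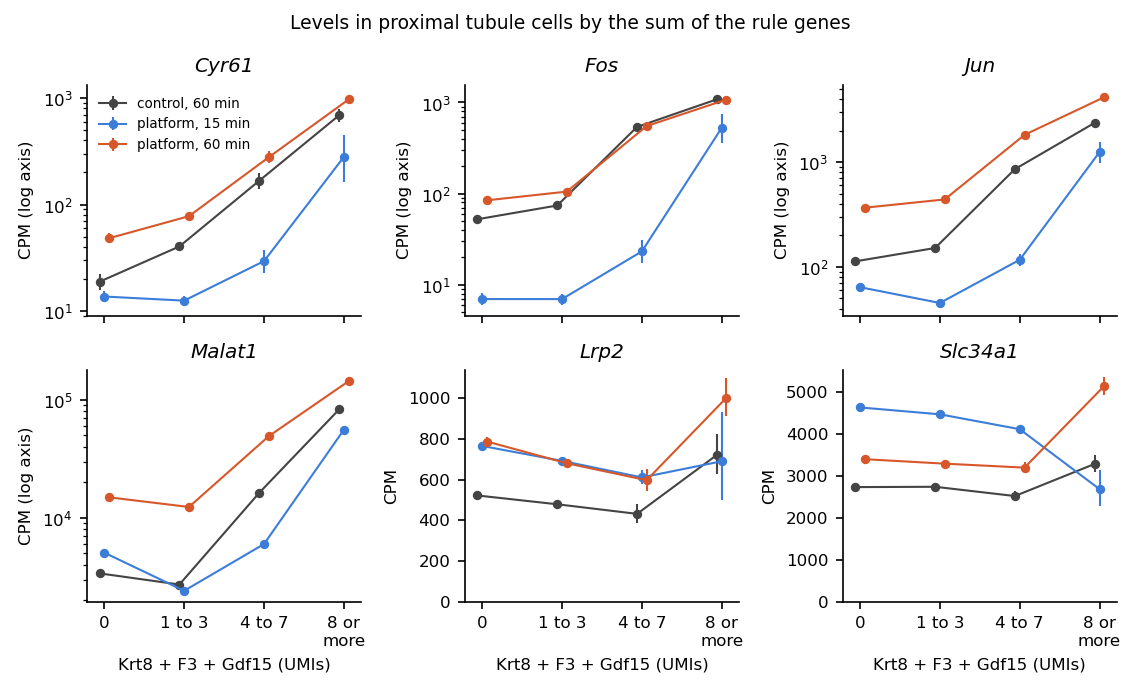
CPM with exact 95% Poisson intervals of Cyr61, Fos, Jun and Malat1 (log axis) and of Lrp2 and Slc34a1 (axis from 0) in proximal tubule cells binned by their UMIs of Krt8, F3 and Gdf15, 1 line per library. Cyr61 climbs from 18.8 to 689 CPM in the control and stays between 12.5 and 29.4 CPM below 8 UMIs at 15 min, while Lrp2 in the control lies between 432 and 722 CPM.

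Cells led by different rule genes also differed among themselves. In the control, the 13 cells led by F3 had the highest levels of Fos (1829 CPM), Junb (1316 CPM), Cyr61 (726 CPM) and Atf3 (368 CPM). The 91 cells led by Krt8 were at 607, 315, 217 and 157 CPM and the 23 led by Gdf15 at 521, 281, 399 and 66.4 CPM. The F3-led cells did not hold this place in the other libraries. The 5 at 15 min had no UMI of Fos or Atf3 and Cyr61 at 14.4 CPM, and the 8 at 60 min had Fos at 618 CPM, below the 730 and 858 CPM of the cells led by Krt8 and Gdf15, Cyr61 at 427 CPM, and the highest Junb and Atf3, at 559 and 810 CPM. At 15 min, the 16 cells led by Gdf15 stood apart from the 151 led by Krt8, with Cyr61 at 257 against 18.7 CPM, Jun at 1115 against 80.4 CPM and Malat1 at 70658 against 2686 CPM. Slc5a12, a lactate cotransporter of the early proximal tubule that the rule had not used, was at 351 against 54.9 CPM in these cells. At 60 min, the 35 cells led by Gdf15 had Cyr61 at 1058 CPM, Hspa1a at 2393 CPM and Slc5a12 at 422 CPM, and the 88 led by Krt8 had 368, 932 and 204.5 CPM. Since the leading gene is set by the cell's own UMIs and groups hold as few as 5 cells, these levels are a description.

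Malat1 was unevenly spread over the cells. After the data had been seen, a limit was set at the 90th percentile of the Malat1 share of the other proximal tubule cells of each library, at 0.0857, 0.0603 and 0.393% of a cell's UMIs. Above it lay 35 of the 137 control cells (25.5%), 19 of the 186 cells at 15 min (10.2%) and 58 of the 138 cells at 60 min (42.0%). In the cells at or below the limit, Fos was at 535 CPM in the control (487 to 587) against 52.1 CPM in the other cells below it, and at 530 CPM (479 to 584) against 47.7 CPM at 60 min. Cyr61 was at 174 against 20.2 CPM and at 180 against 22.8 CPM. The contrast was therefore about as large in these cells as in all cells of both 60 min libraries. At 15 min no such contrast was seen. Fos had 1 UMI in the 167 cells (0.499 CPM, 0.0126 to 2.78) against 2.17 CPM in the other cells, Jun was at 14.5 CPM (9.70 to 20.8) against 16.8 CPM (15.7 to 18.0), and Cyr61 at 6.99 CPM (3.82 to 11.7) against 8.30 CPM (7.52 to 9.15). The 19 cells above the limit carried 80 of the 81 Fos UMIs at 15 min (98.8%), 91.0% of the Jun UMIs and 82.3% of the Cyr61 UMIs. Of the rule genes they carried 44.5% of the Gdf15 UMIs, 7.17% of the Krt8 and 4.65% of the F3 UMIs, with Gdf15 at 385 CPM above the limit and 40.4 CPM at or below it. Among other proximal tubule cells at 15 min, those above the limit had Jun at 454 CPM and Fos at 59.4 CPM. With cells at or below the limit alone, 2 genes were called higher, of which 1 was among the 16.

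**Figure D4:**
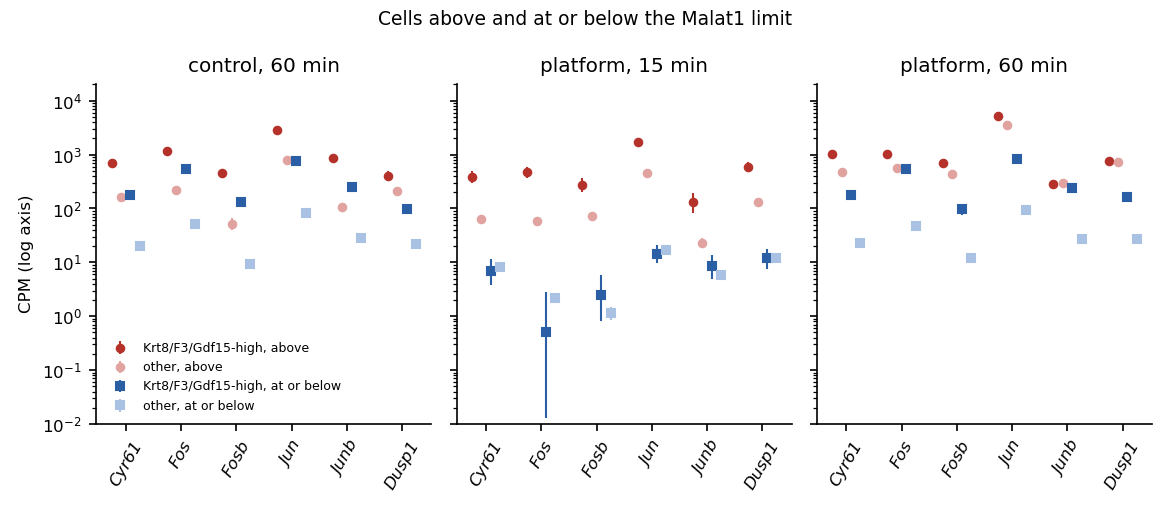
CPM (log axis, exact 95% Poisson intervals) of 6 genes in Krt8/F3/Gdf15-high cells (dark) and other proximal tubule cells (pale), above the Malat1 limit (red circles) and at or below it (blue squares), 1 panel per library. At or below the limit Fos is at 535 against 52.1 CPM in the control and at 0.499 against 2.17 CPM at 15 min.

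Proximal tubule identity was close between the cell groups. Both groups had to hold at least 4 UMIs of the 7 proximal tubule genes of the rule. Cells with fewer were in neither group, so part of this closeness was set by the rule. Of the 14 identity genes compared, which include Lrp2, its partner Cubn, Kap and the factor Hnf4a, 0 were called. Of all compared genes 0.366% were called higher and 0% lower, so a count of 0 in lists this small says little. The median log2 ratios of the identity genes were 0.037, 0.052 and 0.021. Hnf4a was at 176, 164 and 180 CPM in the Krt8/F3/Gdf15-high cells and at 171, 149 and 177 CPM in the other cells. No gene was called among the early (S1) and late (S3) segment lists (8 of 8 and 5 of 8 compared), organic ion transport (10 of 12), sodium-coupled and other solute transport (18 of 20), fatty acid oxidation (15 of 16), gluconeogenesis and fructose use (8 of 8), endocytosis (7 of 8) or proximal tubule transcription factors (6 of 8). The medians of these 8 lists lay between -0.22 and 0.42 in every library. Pax8, a transcription factor of the developing nephron, was at 50.1, 32.2 and 92.5 CPM against 23.1, 20.7 and 32.4 CPM.

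Known genes of tubule injury were mostly scarce. Of the list of 24, 6 passed the level filter and 0 were called, with medians of 0.75, 0.17 and 0.82. Havcr1 and Lcn2, the classic injury markers, had no UMI in the 461 cells. Hbegf, a ligand of the EGF receptor, was at 174, 25.8 and 116 CPM against 29.4, 21.1 and 33.0 CPM, 2-fold or more in both 60 min libraries and not at 15 min. Tnfrsf12a, the TWEAK receptor, had log2 ratios of 1.92, 0.25 and 1.25. Spp1, osteopontin, was at 94.8, 124 and 543 CPM against 131, 196 and 250 CPM, lower in the Krt8/F3/Gdf15-high cells of 2 libraries and higher at 60 min.

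Other stress programs each held at most 1 called gene, where a call needed all 3 libraries. In the control and the 60 min library alone, 3 and 3 of 6 integrated stress genes were at least 2-fold higher. Heat shock had 3 and 5 of 12, NF-kB targets 3 and 3 of 4 and YAP targets 1 and 3 of 3. Nrf2 targets had 2 and 3 of 8, p53 targets 1 and 1 of 4, and actin and clotting genes 0. Over all compared genes these shares were 5.03 and 6.15%. At 15 min no list had more than 1 such gene. Of the targets of YAP, Cyr61 was called among 3 compared genes of 10, at medians of 0.72, 0.47 and 1.38, and Ctgf was at 9.84, 0.921 and 4.75 CPM against 1.15, 0.956 and 2.29 CPM. Plk3 was called among 4 compared p53 targets of 12, at medians of 0.30, 0.34 and 0.18, while Cdkn1a, the p53-driven cell cycle inhibitor, was below the filter. Cxcl10 was called among 4 compared NF-kB targets and chemokines of 18, at medians of 2.76, 0.11 and 1.55. Cxcl1, a neutrophil chemokine, was at 99.3 CPM in the control and 30.1 CPM at 60 min, against 4.84 and 2.05 CPM, and had 1 UMI at 15 min. The integrated stress response had 0 of 6 compared genes called of 17, at medians of 0.91, 0.22 and 0.83. Its Ddit3, a factor of the unfolded protein response, was at 80.5, 11.1 and 71.2 CPM against 10.4, 5.92 and 15.1 CPM. Heat shock genes had 0 of 12 called of 14 (medians 0.48, 0.059 and 0.75), Nrf2 targets and metallothioneins 0 of 8 of 10 (0.47, 0.16 and 0.19), actin and tubulin genes 0 of 12 of 19 (0.26, 0.15 and -0.011) and clotting and plasminogen genes, the company of F3, 0 of 1 of 9 (0.84, 0.24 and -0.40).

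Between conditions, the Krt8/F3/Gdf15-high cells of the 15 min and 60 min platform libraries were each set against those of the control, which both contrasts share. Among 4592 genes with a mean of at least 20 CPM over the 3 libraries of these cells, 12 were at least 2-fold higher at 15 min (0.261%) and 265 lower (5.77%), with a median log2 ratio over all genes of -0.16. At 60 min, 162 genes were at least 2-fold higher (3.53%) and 42 lower (0.915%), with a median of -0.078. The genes used by the rule were not left out here. Among the 265 were 2 of Krt8, F3 and Gdf15, and among the 162 were 2 of the 7 proximal tubule genes of the rule. In the other proximal tubule cells, 19 of the 265, 24 of the 162, 1 of the 42 and 0 of the 12 genes were also past 2-fold in that direction. Fewer genes were past 2-fold there at all, and these overlaps are 19 of 23 lower and 0 of 2 higher genes at 15 min and 24 of 56 higher and 1 of 1 lower gene at 60 min. The sign was the same in the other cells for 212 of the 265, 156 of the 162, 33 of the 42 and 11 of the 12 genes.

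At 15 min, all 6 AP-1 and all 11 immediate early genes that were compared lay at least 2-fold below the control, with medians of -3.64 and -3.50. In the other proximal tubule cells the medians of the same genes were -1.71 and -1.12. Fos differed by -4.16 in the Krt8/F3/Gdf15-high cells and by -3.04 in the other cells, and Jun by -3.08 and -1.32. Atf3, 1 of the 6, had no UMI at 15 min. With it set to the limit of a count of 0 the AP-1 median is still -3.64, and without it the median of the other 5 is -3.115. Btg2, a growth-arrest gene, was at 169 CPM in the control and at 3.22 CPM at 15 min, on 7 UMIs. Heat shock genes split, with 5 of 12 at least 2-fold lower. Among NF-kB targets and chemokines, 3 of 5 were lower, Nfkbia, which encodes the inhibitor of NF-kB, at 160 CPM in the control and 11.5 CPM at 15 min. The integrated stress response had 4 of 8 lower, among them Ddit3 and Atf4 at log2 ratios of -2.76 and -1.55. No gene of the identity, S1, S3, organic ion or solute transport lists was past 2-fold.

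The 12 genes higher at 15 min included Iigp1, an interferon-induced GTPase, at 1.79 CPM in the control and 67.2 CPM at 15 min, where 6 cells held its 146 UMIs. Serpina1d, a protease inhibitor of a multigene family whose reads may be shared with its copies, was at 1.79 and 19.3 CPM, and 30 of its 42 UMIs at 15 min came from a single cell. Cyp2a4, also of a family of near-identical genes, was at 110 CPM in the control and 284 CPM at 15 min, against 126 and 237 CPM in the other cells. Nfkbib, G6pc3, Ctsf, Apob and Ilvbl had log2 ratios between 1.10 and 1.35, against 0.02 to 0.75 in the other cells.

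At 60 min the AP-1 genes were near the control, with a median of 0.38 and 1 of 6 past 2-fold, Jun at 1.05. Immediate early genes had a median of -0.011, with Dusp1 (1.22) and Gadd45g (1.55) higher and Gadd45a (-1.76) lower, all genes of growth arrest or kinase control. In the other proximal tubule cells the same lists had medians of 0.84 and 1.05, higher than in the Krt8/F3/Gdf15-high cells. Heat shock genes had 6 of 12 at least 2-fold higher, with a median of 0.78. The inducible Hspa1a was at 208 CPM (182 to 237) in the control, with 3.22 CPM (1.30 to 6.64) in the 15 min and 1253 CPM (1192 to 1316) in the 60 min library. Hspa1b was at 64.4, 1.84 and 664 CPM, but it is nearly identical to Hspa1a and reads of the pair may have been divided between them. The other proximal tubule cells had Hspa1a at 32.3, 6.04 and 190 CPM. Hsp90aa1, Hsph1, Dnajb1 and Cryab, further chaperones, had log2 ratios between 1.07 and 1.68. Among the Krt8/F3/Gdf15-high cells at or below the Malat1 limit, the gaps between the control and 60 min were smaller. Hspa1a was there at 96.1 and 149 CPM, Hspa1b at 22.5 and 36.9 CPM, Jun at 747 and 838 CPM and Dusp1 at 98.5 and 163 CPM.

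Early segment genes were higher at 60 min as well, 5 of 8 of the S1 list by at least 2-fold with a median of 1.11, against 0.66 for the same genes in the other proximal tubule cells. The 5 were the lactate cotransporter Slc5a12 (1.46), the amino acid transporters Slc7a8 (1.92), Slc6a19 (1.39) and Slc7a7 (1.13) and the glucose transporter Slc2a2 (1.09). Of the solute transport list, which shares 4 of these genes, 6 of 18 were higher, among them Slc34a3 (1.92) and the sodium-proton exchanger Slc9a3 (1.01). Slc5a2 and Spp2, which the rule used to find proximal tubule cells, had log2 ratios of 1.81 and 1.23 against 0.99 and 0.60. Of the S3 list 2 of 6 were higher, Slc16a9 (1.30) and Cyp7b1 (2.62), the latter on 62 UMIs in 4 cells. The proximal tubule identity list had 0 of 14 past 2-fold and a median of 0.056. The genes with the highest ratios at 60 min after Serpina1d and Hspa1b were Fam13a, with 29 UMIs in the control and 316 at 60 min (3.22), Spp1 (2.51), the transcription factor Osr2 (2.34) and the amino acid transporter Slc43a2 (2.22).

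**Figure D5:**
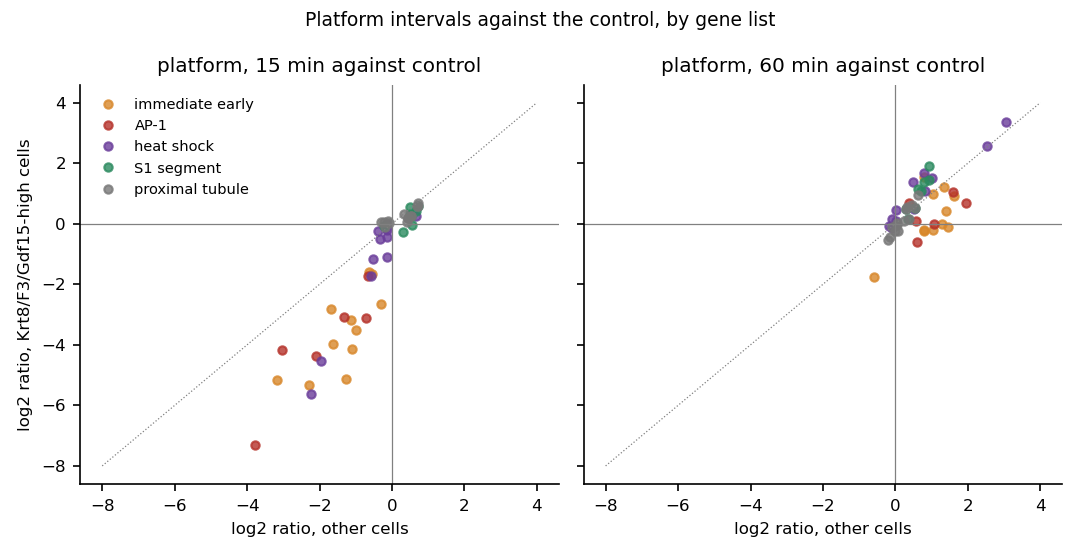
Log2 ratio to the control of the genes of 5 lists in Krt8/F3/Gdf15-high cells (vertical axis) and in other proximal tubule cells (horizontal axis), for the 15 min (left) and 60 min (right) platform library. Each point is a gene and the dotted line marks equal ratios. At 15 min the AP-1 points have a median of -3.64 on the vertical and -1.71 on the horizontal axis, and at 60 min the S1 points have medians of 1.11 and 0.66.

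Several of the lowest ratios at both times belonged to genes held by few control cells. Mgp, Dcn and Gsn, genes of stromal cells, had 821, 346 and 187 UMIs in 2 of the 137 control cells and between 0 and 4 UMIs in the Krt8/F3/Gdf15-high cells of the other libraries. Atf3 and Cxcl1, whose ratios at 15 min were -7.32 and -6.10, were in contrast held by 57 and 37 control cells and by 47 and 11 cells at 60 min. The stromal list (6 genes) summed to 421 CPM in the control and to 0 CPM at 15 and at 60 min, with all 6 genes at 0, and to between 0.0750 and 4.83 CPM in the other proximal tubule cells. Without these 2 cells, the calls between conditions were 14 higher and 247 lower at 15 min and 171 higher and 35 lower at 60 min.

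Markers of other kidney cells were read as sums over each list. The thick ascending limb list (6 genes) summed to 379, 402 and 329 CPM against 437, 406 and 416 CPM in the other proximal tubule cells, and the general distal list (6) to 152, 153 and 194 CPM against 134, 193 and 184 CPM. Of the 461 cells 46.6% held 4 or more UMIs of the thick ascending limb list, against 35.0% of the other proximal tubule cells. For the general distal list the shares were 15.0 and 8.69%, all at the unequal depths given above. Of each list only 1 gene passed the level filter. In the Krt8/F3/Gdf15-high cells at 15 min, 3 of the 6 thick ascending limb genes had no UMI. The shares thus do not stand for the lists as a whole. Macrophage genes (6) summed to 116, 68.1 and 97.3 CPM against 93.7, 57.9 and 261 CPM, so that they were lower in the Krt8/F3/Gdf15-high cells at 60 min. Endothelial genes (7) reached 25.3 CPM at 60 min, against 38.8 CPM, and at most 2.68 CPM in the other libraries. The distal convoluted, principal, intercalated, podocyte, lymphocyte and granulocyte lists summed to at most 28.6 CPM, and red cell genes to at most 0.921 CPM against 361 CPM in the other proximal tubule cells at 60 min. The rule itself had removed cells with Ptprc or Pecam1. The part of free RNA, of doublets and of these other markers in the results was not tested, and no doublet caller was run.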

How the data were processed

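Reads of 3' droplet libraries (10x Genomics) had been mapped by the authors to mm10 in Cell Ranger 3.1.0. Its aggregation step subsampled the libraries of each tissue to a similar number of mapped reads per cell. The values deposited are raw UMI counts, 1 whole number for each cell and gene, with no cell yet removed by the authors' quality limits. The 3 kidney libraries held 69691783 (control), 116998401 (15 min) and 112969440 (60 min) UMIs over 31053 genes, in 8233, 12082 and 13719 deposited cells. Depth per cell is already partly equalised by the aggregation.

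From these counts, cells were chosen by the rule in the report with Python 3.11.15, numpy 2.4.6, scipy 1.17.1 and pandas 2.3.3. The members, the gene lists and the rule were chosen with earlier results of these data known. UMIs were summed per library and cell group and given as CPM, and log2 ratios had 1 CPM added to both levels. Distal cells, lymphocytes and endothelial cells were taken by their marker UMIs for comparison only. Thinning drew 3000 UMIs per cell without replacement. Only the upper limit on genes and the excluded genes acted on doublets. Each condition is 1 library, so nothing was tested between conditions and no p-value was made from cells. The scripts were tested on simulated data.

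Named genes were the rule genes and Cyr61, the 15 highest and 15 lowest by the weakest library against the other proximal tubule cells, the 8 highest and 8 lowest of each platform interval against the control (mitochondrial, ribosomal and predicted genes not named), and genes within the account of their list. A gene that the rule ranked is not reported here. Alternatives changed the threshold, the depth, the limits on cells, the rule genes, the pseudocount, the filter, the scaling, the weighting and the reference cells. Mammary tumor libraries of the series were not used here.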

Additional observations from a re-analysis of the deposited data

Results flagged for a closer look

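In the Krt8/F3/Gdf15-high cells, 14 genes lay at least 2-fold below the control at 15 min and at least 2-fold above it at 60 min. Only genes of the lists and genes named by rank were searched for this. Over all 4592 compared genes, 265 (5.77%) were lower at 15 min and 162 (3.53%) higher at 60 min. How many of those were both was not counted. Each condition has 1 library and both contrasts share the control, so these differences were not tested. Chaperone genes were among them, as log2 ratios at 15 and 60 min, with Cryab at -1.16 and 1.07, Dnajb1 at -1.74 and 1.52, Hspa1a at -5.63 and 2.58, Hspa1b at -4.52 and 3.35, and Hsph1 at -1.11 and 1.68. The early response genes were Dusp1 at -1.61 and 1.22, Gadd45g at -1.65 and 1.55, Jun at -3.08 and 1.05, Plk3 at -2.15 and 1.09, and Nfkbiz, a regulator of NF-kB, at -1.79 and 1.95. The noncoding RNAs Malat1 and Snhg11 were at -2.21 and 1.26 and at -1.21 and 1.499. Pde4d was at -1.18 and 1.17, and Pdk4, a kinase that limits glucose oxidation, at -3.47 and 1.41. In the cells at or below the Malat1 limit, Hspa1a, Hspa1b, Jun and Dusp1 at 60 min lay nearer the control, at the levels given above.

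Against the other proximal tubule cells, Dcn, a matrix proteoglycan, had a log2 ratio of 7.98 in the control and of -1.43 at 60 min. Its 346 control UMIs came from 2 cells, and at 60 min it had no UMI in the Krt8/F3/Gdf15-high cells against 1.69 CPM in the other cells, so the ratio depends on the CPM added. Klf2, a Krüppel-like factor, had 2.31 in the control and -1.56 at 15 min, where 1 UMI (0.460 CPM, 0.0117 to 2.57) stood against 3.299 CPM. Neither difference was tested.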

How the results depend on the processing

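No paired analysis was possible because each group holds 1 library. Small counts limit the 15 min values, which for Egr1, Hspa1a, Hspa1b and Btg2 rest on under 10 UMIs, although these cells were the deepest. Aggregation by the authors removed UMIs that cannot be recovered here. Settings that keep only some cells (Malat1 limit, cells with markers of other cell types left out, 8 UMIs) were chosen after seeing the data.

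In the order control, 15 min and 60 min, the share of Krt8/F3/Gdf15-high cells was 10.6, 7.29 and 10.3% at a threshold of 3 UMIs, 2.55, 0.328 and 2.58% at 6 UMIs, 1.96, 0.0773 and 1.94% after thinning, 15.6, 8.24 and 21.4% without the upper limit on genes, 1.35, 0.271 and 1.88% without Krt8 in the sum, and 3.899, 1.98 and 3.64% without Gdf15. At 15 min it was 2.01% without F3 and 3.43% with a mitochondrial limit of 25%. Under each of the 6 settings given for all libraries, the 15 min share was the lowest.

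Genes higher against the other proximal tubule cells numbered 6 with 10 CPM added, 27 with the other cells weighted to the same depth, 10 against cells with no UMI of the rule genes, 2 at or below the Malat1 limit and 375 with 8 or more UMIs, where 6 cells remain at 15 min. Lower genes numbered 2 without the filter, 1 without cells holding markers of 7 other cell types and 11 with 8 or more UMIs. Leaving out each library gave 13 to 201 higher and 0 to 1 lower genes. The 201 and the 1 came without the 15 min library.

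At 15 min against the control, 3 genes were higher and 134 lower with 10 CPM added, 392 and 1491 without the filter, 23 and 118 at or below the Malat1 limit and 1086 and 830 with 8 or more UMIs, and 31 were higher on UMIs that are not mitochondrial. At 60 min, 90 were higher and 15 lower with 10 CPM added, 1442 and 766 without the filter and 565 and 454 with 8 or more UMIs, and 58 were higher at or below the Malat1 limit.

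At or below the Malat1 limit the weakest log2 ratio to the other cells, at 15 min, turned for Fos (-1.08), Jun (-0.20), Klf4 (-0.56), Cyr61 (-0.22), Kcnq1ot1 (-0.58), Dusp1 (-0.012), Pde4d (-0.55), Klf6 (-0.41), Snhg11 (-0.66) and Malat1 (-0.10). Under the same limit Gsn turned at 15 min (0.58), and Fam13a (-0.0090) and Cxcl12 (0.47) at 60 min against the control. Without the 2 cells with stromal UMIs, or without cells of 7 lists, Gsn turned at 15 min (0.55 and 0.57) and Mgp (0.84 and 0.86) and Gsn (2.06 and 2.09) at 60 min. With 8 or more UMIs, Egr1 (-0.85), Cyp2a4 (-6.61) and Ilvbl (-4.40) turned at 15 min. Where the settings do not themselves show it, the cause was not tested. No other named gene turned.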

Other observations

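Several genes of known roles outside the accounts above were at least 2-fold apart in both 60 min libraries. In the Krt8/F3/Gdf15-high cells of the control, the 15 min and the 60 min library, Pdk4 was at 30.4, 1.84 and 82.3 CPM against 2.65, 1.27 and 4.77 CPM in the other proximal tubule cells, while the other fatty acid oxidation genes, such as Acadm at 732, 672 and 524 CPM against 665, 576 and 567 CPM, were close. Osgin1, a target of Nrf2, was at 76.9, 35.4 and 112 CPM against 30.02, 23.6 and 34.5 CPM, and the metallothionein Mt1 at 123, 12.4 and 100.5 CPM against 28.2, 13.9 and 33.7 CPM. Icam1, an adhesion molecule of the NF-kB list, was below the level filter, at 26.8, 5.99 and 15.8 CPM against 3.63, 2.66 and 6.04 CPM. These genes were picked from the lists after their values were seen, and no difference was tested.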
